A study of Mus musculus with 11 samples.

Results

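The genes described here carry out mitosis: the kinases that start it, the spindle checkpoint, the kinetochore, the spindle motors and the condensin complex that compacts chromosomes. The set is a list of 58 gene symbols, of which 57 had a probe set annotated with that symbol alone. Ccnb1 was the listed gene without such a probe set and is not reported here. All 57 genes passed the filter on low values, among 16527 genes tested in all, and each gene is represented by its probe set with the highest mean. The list was drawn up by gene function and not from these arrays, but with earlier results of these data known.

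The dentate gyrus, dorsal and ventral, was microdissected from adult mice (postnatal day 35), GFP-positive cells were sorted, and their RNA was amplified before hybridisation to 11 Affymetrix Mouse Gene 1.0 ST arrays. PomcGFP mice (2 arrays) carry a GFP transgene for Pomc, the pro-opiomelanocortin gene, whose reporter is known to mark newborn granule neurons. Eomes encodes Tbr2, a transcription factor of intermediate progenitors: kiTbr2GFP mice (3 arrays) have GFP knocked into it, and tgTbr2GFP mice (3 arrays) carry GFP on a BAC transgene of it. NesGFP mice (3 arrays) carry a GFP transgene for Nestin, a filament protein typical of neural stem cells. All 4 groups were GFP reporter mice, with no treatment and no control without a reporter. GFP can remain in a cell after its promoter has gone silent, so a line marks a reporter and not a fixed stage. Strain and sex are not given in the sources used here. Whether arrays of the same line represent different animals is not stated, so the p-values rest on the spread between arrays, and that spread may be technical.

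Neural stem cells of the dentate gyrus divide rarely, whereas the Tbr2-positive intermediate progenitors that they form divide several times before their daughters leave the cell cycle and become granule neurons. Mitotic genes are transcribed mainly from late S phase to mitosis. In cells that have left the cycle they are held silent by the DREAM complex, and in cycling cells they are activated by B-Myb, MuvB proteins and FoxM1. Many of these genes have in their promoters a cell cycle genes homology region, CHR, through which MuvB complexes bind, and upstream CCAAT boxes, bound by the activator NF-Y.

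Promoter sequence is a property that the list did not use, and the promoters below are shown so that these elements can be read. Each line gives 150 bases, 120 before and 30 from the transcript start on, read 5′ to 3′ on the strand of the gene, from RefSeq promoter windows of build GRCm38.p6. Capitals mark the CHR core TTTGAA and the CCAAT box on either strand (TTCAAA and ATTGG on the other strand). For each functional group with a window, the gene with the largest difference between PomcGFP and the Tbr2 lines was taken. The first are Cks2 at chr13:51645112-51645261 (plus strand), Bub1 at chr2:127831830-127831979 (minus strand), Hmmr at chr11:40733408-40733557 (minus strand), Ect2 at chr3:27153849-27153998 (minus strand) and Top2a at chr11:99024160-99024309 (minus strand), each with 2 or 3 CCAAT boxes in the stretch shown.
Cks2: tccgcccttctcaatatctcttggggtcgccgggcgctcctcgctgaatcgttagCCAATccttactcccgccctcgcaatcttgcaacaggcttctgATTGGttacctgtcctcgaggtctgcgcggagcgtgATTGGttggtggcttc
Bub1: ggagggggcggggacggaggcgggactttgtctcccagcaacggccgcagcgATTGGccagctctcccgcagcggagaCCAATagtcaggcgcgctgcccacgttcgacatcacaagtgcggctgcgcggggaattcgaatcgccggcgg
Hmmr: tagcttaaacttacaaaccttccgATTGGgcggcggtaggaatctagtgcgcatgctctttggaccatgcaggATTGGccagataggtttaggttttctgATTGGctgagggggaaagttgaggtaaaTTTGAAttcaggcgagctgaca
Ect2: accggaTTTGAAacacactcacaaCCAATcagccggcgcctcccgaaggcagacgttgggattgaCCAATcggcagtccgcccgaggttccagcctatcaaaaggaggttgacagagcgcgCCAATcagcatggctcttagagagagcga
Top2a: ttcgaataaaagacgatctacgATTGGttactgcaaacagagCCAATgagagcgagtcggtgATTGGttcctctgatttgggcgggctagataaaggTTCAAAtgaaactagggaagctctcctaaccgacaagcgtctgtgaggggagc
The others are Kif11 at chr19:37376262-37376411 (plus strand), with a CCAAT box and a CHR core, Ncapg at chr5:45669805-45669954 (plus strand), with a CHR core alone, and Knl1 at chr2:119046999-119047148 (plus strand) and Birc5 at chr11:117849117-117849266 (plus strand), with neither in the stretch shown.
Kif11: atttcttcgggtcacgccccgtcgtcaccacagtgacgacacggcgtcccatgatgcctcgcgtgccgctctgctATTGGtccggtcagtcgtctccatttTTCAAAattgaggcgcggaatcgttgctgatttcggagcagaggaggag
Ncapg: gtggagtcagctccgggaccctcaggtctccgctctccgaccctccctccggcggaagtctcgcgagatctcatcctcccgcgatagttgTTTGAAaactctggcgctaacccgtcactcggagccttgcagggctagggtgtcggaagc
Knl1: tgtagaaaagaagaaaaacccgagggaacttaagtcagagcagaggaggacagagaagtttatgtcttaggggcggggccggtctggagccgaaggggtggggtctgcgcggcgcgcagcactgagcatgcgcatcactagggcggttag
Birc5: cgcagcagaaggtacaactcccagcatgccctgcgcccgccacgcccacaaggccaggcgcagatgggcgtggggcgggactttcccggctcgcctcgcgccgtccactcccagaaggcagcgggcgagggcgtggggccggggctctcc
Positions count from 0 at the first base of the transcript. The core TTTGAA began at position -19 in Kif11, at -23 in Top2a, at -30 in Ncapg and at 8 in Hmmr. Knl1 had it at 31, just past the stretch shown. Ect2 has 2 windows, with the core at -114 and 39 in the one shown and at -138 and 15 in the other. No TTTGAA was found in the 300-base windows of Cks2, Bub1 and Birc5. Only TTTGAA was searched as the CHR core, so a CHR of another spelling would be missed.

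A promoter window of 300 bases (250 before the start and 50 from it on) was at hand for 48 of the 57 genes. On either strand, the letters TTTGAA stood in a window of 37 of these 48 genes (77.1%), against 1939 of the 13013 tested genes with a window (14.9%). Within 50 bases of the start the count was 33 of 48 mitotic genes (68.8%), against 501 of all genes (3.85%). The same core with 1 letter changed, TTTAAA, stood in 8 of the 48 (16.7%), against 11.4% of all genes. TTTAAA reads the same on both strands, whereas TTTGAA can also match as TTCAAA. The shares of TTTAAA and TTTGAA are therefore not directly comparable. CCAAT was found for 32 of the 48 genes (66.7%), against 41.6% of all genes, and both CCAAT and TTTGAA for 28 (58.3%), against 5.95%. The GC box GGGCGG was found for 38 of the 48 (79.2%), against 61.0% of all genes. Matches that shared bases were counted for each motif. In 2 related lists TTTGAA was found for 19 of 48 further mitotic genes (39.6%) and for 4 of 30 DNA replication genes (13.3%). CCAAT was found for 32 of the further mitotic genes (66.7%) and 19 of the replication genes (63.3%), about the share of the mitotic set, and the GC box for 32 (66.7%) and 22 (73.3%). These matches describe letters and were not tested for binding.

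**Figure D1:**
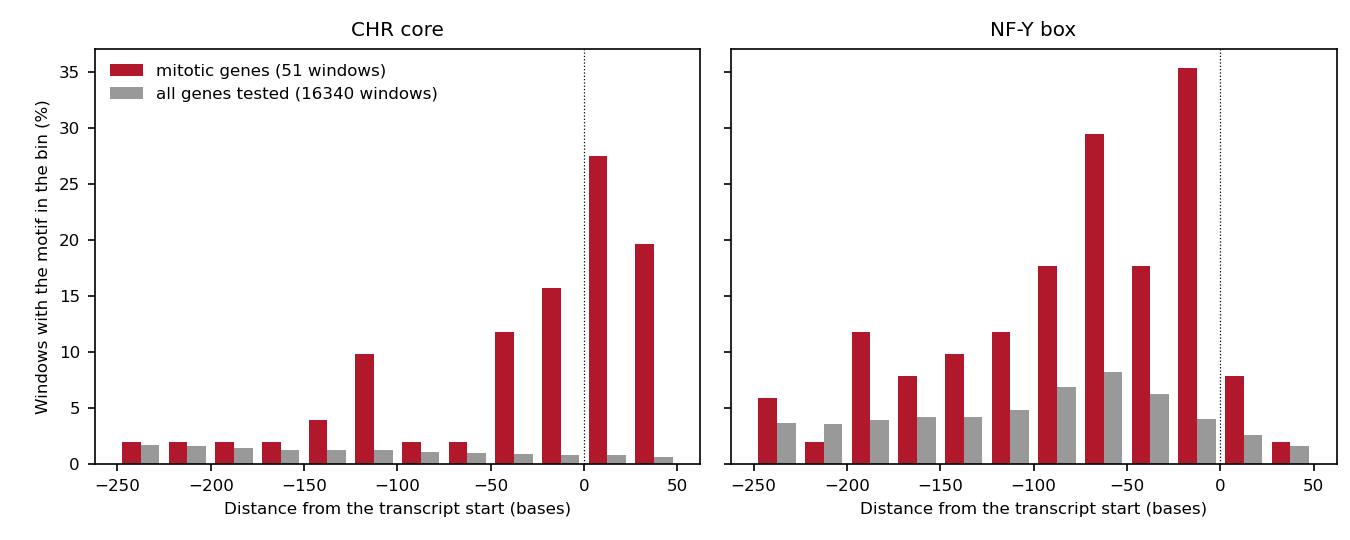
Share of promoter windows (%, vertical axis) with the CHR core (left) or the NF-Y box, CCAAT (right), beginning in each 25-base bin of distance from the transcript start (bases), for the mitotic genes (red, 51 windows) and all genes tested (grey, 16340 windows). The CHR core of the mitotic genes is most frequent in the bin that opens at the start, at 27.5% of windows from 0 to 24 against 0.838% of all windows, and the NF-Y box in the bin just upstream, at 35.3% from -25 to -1 against 4.03%.

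The sorted cells were compared with markers of the cell types they could hold. Eomes had log2 values of 7.35 to 7.68 in PomcGFP, 9.93 to 10.08 in kiTbr2GFP, 9.83 to 10.39 in tgTbr2GFP and 8.52 to 9.23 in NesGFP. The mean log2 value of 7 mature granule neuron genes lay between 10.08 and 10.15 in PomcGFP, 7.34 and 7.53 in kiTbr2GFP, 8.33 and 9.23 in tgTbr2GFP, and 8.27 and 8.59 in NesGFP. NesGFP stood apart in other cell types. All 8 endothelial, 7 mural and 7 oligodendrocyte precursor genes were lower in the mean of both Tbr2 lines than in NesGFP. So were all 6 oligodendrocyte and 12 astrocyte and radial glia genes, against 29.1% of all genes. Cspg4 is counted in both the mural and the oligodendrocyte precursor list. The mean of the mural genes, for example, was 6.91 to 7.05 in kiTbr2GFP and 6.93 to 7.25 in tgTbr2GFP, against 9.50 to 9.58 in NesGFP. Within a line, arrays correlated across the genes tested at 0.978 in PomcGFP and at 0.977 to 0.985 in kiTbr2GFP. The correlations were 0.967 to 0.978 in tgTbr2GFP and 0.939 to 0.959 in NesGFP.

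Averaged over the set, the mitotic genes were highest in kiTbr2GFP, intermediate in tgTbr2GFP and lower in NesGFP and PomcGFP. Single genes departed from this order: the mean of tgTbr2GFP was below that of NesGFP for 17 genes. The mean of kiTbr2GFP was the highest of the 4 lines for 55 of the 57 genes, the exceptions being Plk1 and Cdc20. In every gene the mean of tgTbr2GFP lay between those of PomcGFP and kiTbr2GFP. The lowest mean was that of PomcGFP for 42 genes and that of NesGFP for the other 15. Averaged over the 57 genes, after each gene was centred on its mean over the arrays, the log2 level was -0.85 to -0.74 on the PomcGFP arrays, 0.82 to 1.13 on the kiTbr2GFP arrays, 0.01 to 0.11 on the tgTbr2GFP arrays and -0.53 to -0.35 on the NesGFP arrays. These ranges did not overlap. By the moderated F test of limma over the 4 lines, 55 of 57 genes differed at an adjusted p under 0.05, against 43.4% of all genes tested, and Ube2c (adjusted p = 0.0925) and Aurkb (adjusted p = 0.154) did not pass. In sorted populations, fewer dividing cells and less mitotic RNA per dividing cell cannot be told apart.

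**Figure D2:**
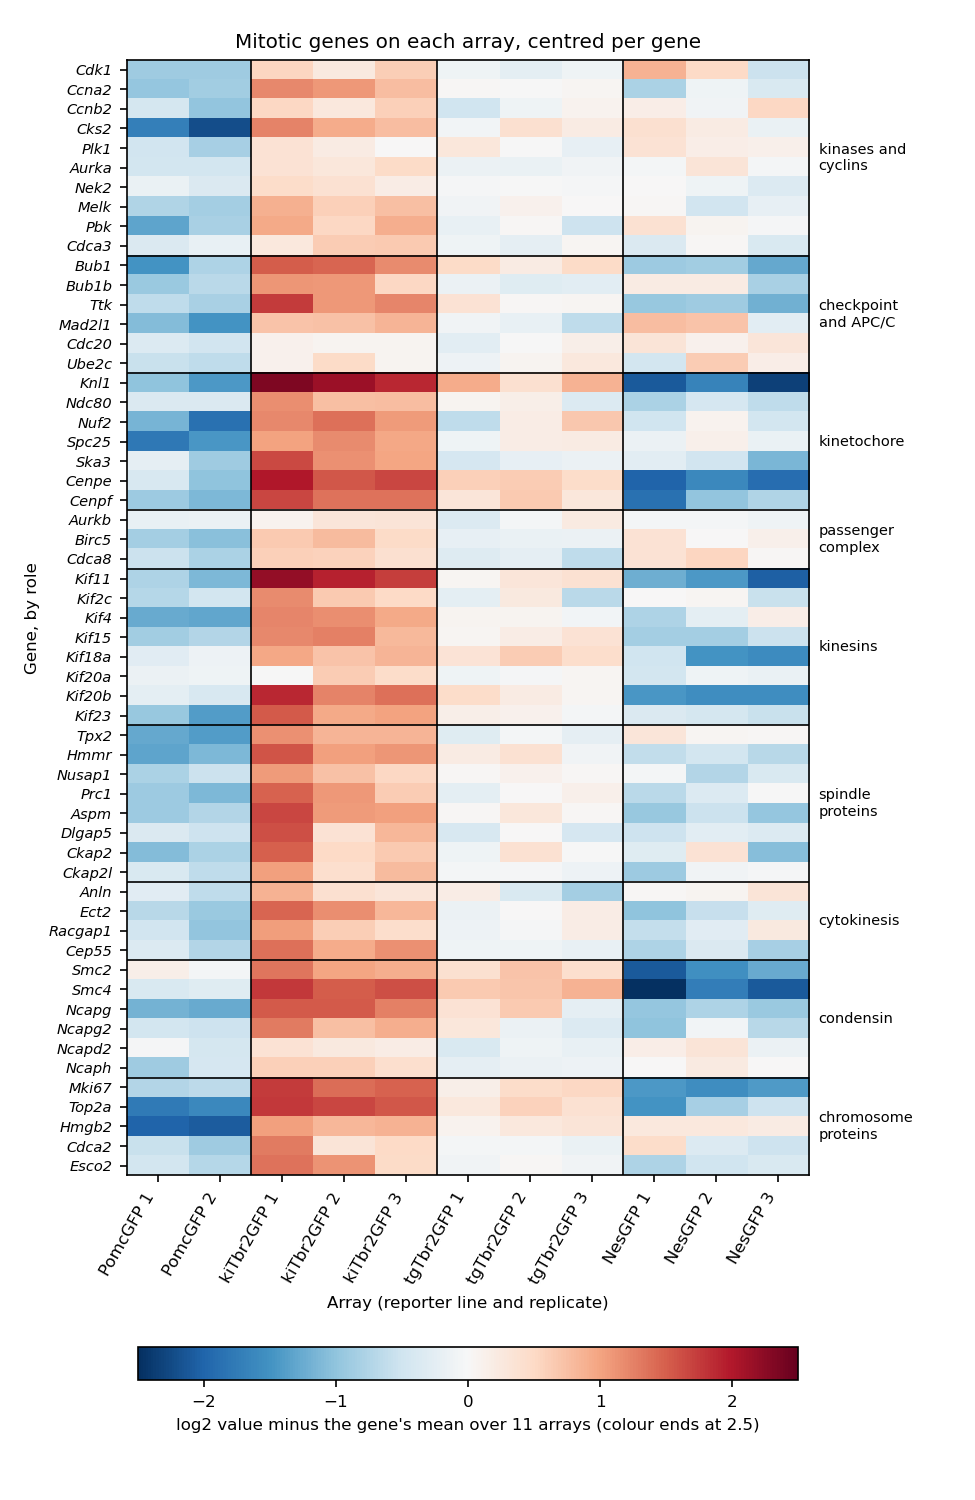
Log2 level of the 57 mitotic genes (rows, grouped by role) on the 11 arrays (columns, by line), each gene centred on its mean over all arrays. The kiTbr2GFP columns are above the gene's mean for nearly all rows, the PomcGFP columns are below it for nearly all, and the NesGFP columns differ between rows.

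On all 3 kiTbr2GFP arrays 44 of the 57 genes (77.2%) were above all other 8 arrays, against 2.67% of all genes tested. Both PomcGFP arrays lay below all 6 Tbr2 arrays for 47 genes (82.5%), against 7.93% of all genes. All 3 NesGFP arrays lay below the other 8 for 10 genes (17.5%), against 14.6% of all genes. Those 10 were Ttk, Knl1, Ndc80, Cenpe, Kif11, Kif18a, Kif20b, Smc2, Smc4 and Mki67. Some levels were near the floor of the array. On both PomcGFP arrays 6 genes (Bub1, Kif4, Hmmr, Ect2, Cdca2 and Esco2) were under the 25th percentile of all probe sets. On all 3 NesGFP arrays 4 genes were (Knl1, Cenpe, Kif20b and Esco2). Kif18a and Cep55 were on 2 NesGFP arrays, and Kif11, Bub1, Ttk, Ska3, Hmmr, Ect2 and Ncapg2 on 1. Fold changes against those arrays may be understated.

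Mitotic genes were lower in PomcGFP cells than in Tbr2 cells. Of the 57 genes 41 were lower in PomcGFP than in both Tbr2 lines (the mean of the lines) and 0 were higher, against 1.73% of all genes lower and 2.0% higher. Here and below, a gene is called higher or lower at an adjusted p under 0.05 in limma's moderated test, with Benjamini-Hochberg adjustment over all genes. In these calls, both Tbr2 lines (or the Tbr2 lines) stands for the mean of the 2 lines and not for each line. All 57 differences were negative, 54 of them at an unadjusted p under 0.05, with a median of -1.17 on the log2 scale, where the median of all genes was 0.02. The largest were those of Top2a (6.63-fold lower), Knl1 (6.24-fold), Hmgb2 (6.07-fold), Cks2 and Spc25. Against kiTbr2GFP alone 51 genes were lower (background 1.98%, median -1.71), and against tgTbr2GFP alone 21 were (background 0.823%, median -0.74), with 0 higher in either case (backgrounds 2.90% and 0.545%). These comparisons share the PomcGFP arrays. Without the second PomcGFP array 26 genes rather than 41 were lower than in both Tbr2 lines. The calls of Aurka, Ndc80, Plk1, Bub1b and Ccnb2 were lost when the first or the second PomcGFP array was left out, that of Ncaph without the first and that of Prc1 without the second. Against tgTbr2GFP alone the count of 21 became 8 when the first or the second PomcGFP array was left out, 11 without the second tgTbr2GFP array and 13 without the third. Markers moved with the comparison: 6 of 7 mature granule neuron, 3 of 8 microglia and 2 of 6 oligodendrocyte genes were higher in PomcGFP, and 5 of 10 intermediate progenitor genes were lower. Their part in the difference was not tested.

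The Tbr2 lines differed from each other, with higher mitotic genes in the knock-in. Of the 57 genes 29 were higher in kiTbr2GFP than in tgTbr2GFP and 0 were lower, against 0.436% of all genes higher and 0.684% lower. All 57 differences were positive, 52 of them at an unadjusted p under 0.05, with a median of 0.96, where the median of all genes was 0.02. On all 3 kiTbr2GFP arrays 52 genes (91.2%) were above all 3 tgTbr2GFP arrays, against 7.78% of all genes. Plk1, Cdc20, Ube2c, Aurkb and Kif20a were the 5 genes whose arrays overlapped. The largest differences were those of Kif11 (3.27-fold), Ska3, Knl1 (2.60-fold), Cep55, Kif20b and Top2a (2.39-fold). The count of 29 depended on single arrays: 11 genes passed without the first kiTbr2GFP array, 16 without the second, 12 without the first tgTbr2GFP array and 13 without the third. Among the genes given in full below, the calls of Kif11, Tpx2, Mki67, Cenpe, Cep55 and Kif20b held with each array left out in turn, and those of Knl1, Ska3, Top2a, Hmgb2, Birc5, Bub1, Kif4, Ncaph, Ndc80 and Prc1 were lost without at least 1 array. With array weights 48 genes passed, and the share of all genes called higher was 3.39% under that setting. Of the 7 mature granule neuron genes 4 were lower in kiTbr2GFP than in tgTbr2GFP, and 2 of 12 astrocyte and radial glia genes were lower. The mean of the mature granule neuron genes spread over 8.33 to 9.23 on the tgTbr2GFP arrays, whereas the mean of the mitotic genes lay between 7.50 and 7.61 there, and the part of those cells in the difference was not tested.

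Against NesGFP the genes divided. Of the 57 genes, 38 were higher in both Tbr2 lines and 0 were lower, against 19.8% of all genes higher and 29.1% lower. At an unadjusted p under 0.05 the counts were 40 higher and 0 lower. The median difference was 0.80, where that of all genes was -0.02, and the range reached from -0.24 for Cdca8 to 3.46 for Knl1, an 11-fold difference. Among the largest were also Smc4 (10.1-fold), Cenpe, Kif11 (6.32-fold) and Smc2. Of the kinetochore genes 7 of 7 were higher, of the kinesins 7 of 8 and of the spindle proteins 7 of 8. It was 4 of 10 kinases and cyclins and 0 of 3 genes of the chromosomal passenger complex (0 of 3 also at an unadjusted p under 0.05). In tgTbr2GFP alone the counts higher than in NesGFP were 4, 5, 2, 1 and 0, in the same order. In kiTbr2GFP alone 46 genes were higher than in NesGFP and 0 lower (backgrounds 18.2% and 27.0%, median 1.21). In tgTbr2GFP alone 21 were higher and 3 lower (backgrounds 15.8% and 25.8%, median 0.30), the 3 being Birc5, Cdca8 and Mad2l1. Cdca8 kept that call with each array left out, and Birc5 and Mad2l1 lost it: 1 gene was lower without the first or the second kiTbr2GFP, the second tgTbr2GFP or the first NesGFP array. Without the third NesGFP array, Cdca8, Cdk1 and Mad2l1 were lower in both Tbr2 lines than in NesGFP. The endothelial, mural and oligodendroglial genes named above were higher in NesGFP, and their part in these differences was not tested.

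Between PomcGFP and NesGFP more of the mitotic genes were lower than higher in PomcGFP. Of the 57 genes 21 were lower (36.8%, against 24% of all genes) and 7 higher (12.3%, under the 15.9% of all genes), with a median of -0.42 where that of all genes was 0.00. The 7 higher in PomcGFP were Smc4, Smc2, Kif20b, Cenpe, Kif18a, Knl1 and Mki67. Hmgb2, Cks2, Mad2l1, Spc25 and Tpx2 were lower by the most. Without the second PomcGFP array 13 genes rather than 21 were lower. The call of Knl1 was lost without the first PomcGFP array and that of Kif18a without the second, and among the lower genes those of Cdk1 and Top2a were lost when the first or the second was left out. All 8 endothelial, 7 mural, 7 oligodendrocyte precursor and 12 astrocyte and radial glia genes were lower in PomcGFP than in NesGFP, and 4 of 8 microglia and 6 of 7 mature granule neuron genes were higher.

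**Figure D3:**
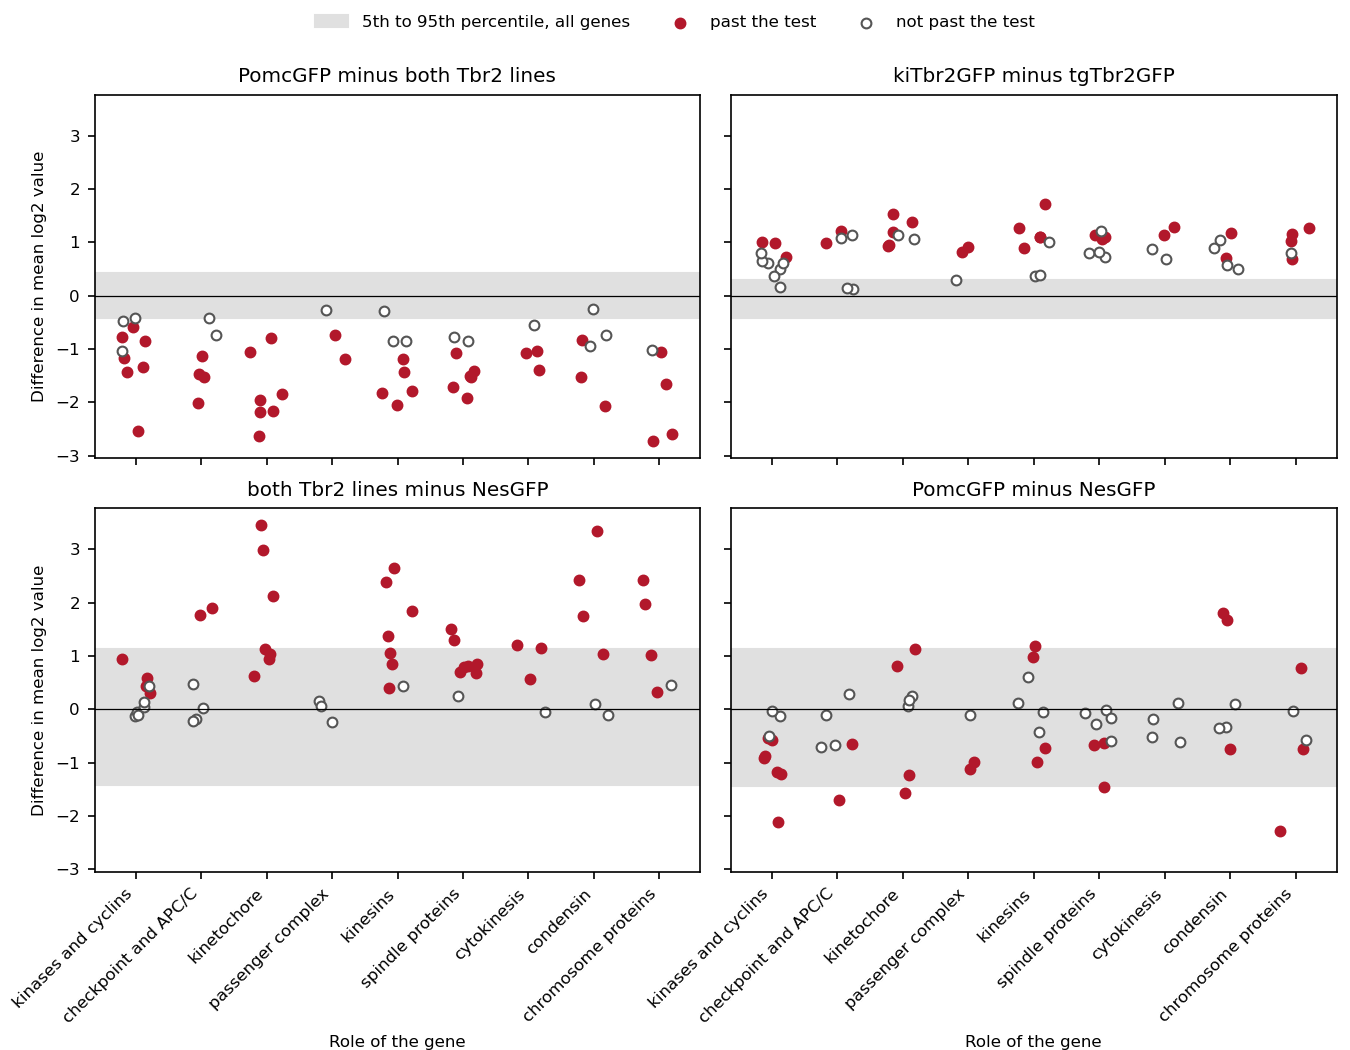
Log2 difference (vertical axis) of each mitotic gene in the 4 main comparisons, by role (horizontal axis), with filled points past the test, open points not past it, and a grey band over the percentiles of all genes given in the key. PomcGFP minus both Tbr2 lines is negative and kiTbr2GFP minus tgTbr2GFP positive for all 57 genes, while both Tbr2 lines minus NesGFP runs from -0.24 to 3.46 and PomcGFP minus NesGFP from -2.28 to 1.81.

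Of the mitotic kinases, cyclins and cofactors, 7 of 10 were lower in PomcGFP than in both Tbr2 lines (against 1.73% of all genes). In the Tbr2 lines 4 of the 10 were higher than in NesGFP (against 19.8% of all genes). In kiTbr2GFP 3 were higher than in tgTbr2GFP (against 0.436%). The same shares of all genes stand beside the counts of the role groups below. Cdk1, the kinase that drives entry into mitosis, had log2 values of 6.75 and 6.75 in PomcGFP, 8.17, 7.89 and 8.25 in kiTbr2GFP, 7.54, 7.40 and 7.54 in tgTbr2GFP, and 8.51, 8.14 and 7.11 in NesGFP. PomcGFP lay below all other arrays, and NesGFP spread over the range of both Tbr2 lines. PomcGFP minus both Tbr2 lines was -1.05 ± 0.27 (SE), which did not pass (adjusted p = 0.0634), and PomcGFP minus NesGFP was -1.17 ± 0.31 (adjusted p = 0.0101). Cks2, a small subunit that binds cyclin-dependent kinases, stood at 6.72 and 6.21 in PomcGFP, 9.67, 9.36 and 9.21 in kiTbr2GFP, 8.35, 8.84 and 8.65 in tgTbr2GFP, and 8.83, 8.64 and 8.27 in NesGFP. It was lower in PomcGFP than in both Tbr2 lines by a difference of -2.55 ± 0.20 (adjusted p = 7.76e-05) and than in NesGFP by -2.12 ± 0.22 (adjusted p = 2.33e-05), while the tgTbr2GFP and NesGFP arrays overlapped.

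Ccnb2, a B-type cyclin that partners Cdk1, had log2 values of 8.20 and 7.67 in PomcGFP, 9.15, 8.92 and 9.24 in kiTbr2GFP, 8.14, 8.53 and 8.73 in tgTbr2GFP, and 8.80, 8.56 and 9.16 in NesGFP. PomcGFP minus both Tbr2 lines was -0.85 ± 0.20 (adjusted p = 0.0414), although the first PomcGFP array overlapped tgTbr2GFP. Aurka, the centrosomal Aurora kinase, measured 7.47 and 7.46 in PomcGFP, 8.28, 8.21 and 8.40 in kiTbr2GFP, 7.78, 7.77 and 7.83 in tgTbr2GFP, and 7.88, 8.24 and 7.88 in NesGFP. Its PomcGFP arrays were the lowest, with a difference from both Tbr2 lines of -0.58 ± 0.12 (adjusted p = 0.0199), and kiTbr2GFP minus tgTbr2GFP was 0.50 ± 0.12 (adjusted p = 0.0802). Plk1, the polo kinase of spindle assembly and mitotic exit, was at 6.60 and 6.25 in PomcGFP, 7.45, 7.29 and 7.09 in kiTbr2GFP, 7.38, 7.08 and 6.88 in tgTbr2GFP, and 7.45, 7.25 and 7.22 in NesGFP. Only PomcGFP stood apart for Plk1 (-0.77 ± 0.16 against both Tbr2 lines, adjusted p = 0.0185), and the other lines overlapped. Ccna2 (0.99), Pbk (1.01) and Melk (0.73) were the 3 genes of this group that were higher in kiTbr2GFP than in tgTbr2GFP.

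The spindle checkpoint holds chromosomes back until each is attached, and the anaphase-promoting complex then lets them part. Bub1, a checkpoint kinase, measured 5.35 and 6.07 in PomcGFP, 8.36, 8.29 and 8.01 in kiTbr2GFP, 7.32, 7.04 and 7.32 in tgTbr2GFP, and 5.92, 5.98 and 5.56 in NesGFP. Both Tbr2 lines lay above all PomcGFP and NesGFP arrays, and kiTbr2GFP above tgTbr2GFP. The differences were -2.01 ± 0.19 for PomcGFP minus both Tbr2 lines (adjusted p = 0.000215) and 1.90 ± 0.16 for both Tbr2 lines minus NesGFP (adjusted p = 2.72e-06). Bub1b (BubR1), its relative, had 6.51 and 6.77 in PomcGFP, 8.54, 8.53 and 7.97 in kiTbr2GFP, 7.30, 7.15 and 7.17 in tgTbr2GFP, and 7.64, 7.65 and 6.63 in NesGFP. Here 2 NesGFP arrays lay above all tgTbr2GFP arrays, and both Tbr2 lines minus NesGFP was 0.47 ± 0.22 (adjusted p = 0.0978). Mad2l1, which inhibits Cdc20, was at 7.40 and 6.99 in PomcGFP, 9.20, 9.23 and 9.34 in kiTbr2GFP, 8.40, 8.30 and 7.85 in tgTbr2GFP, and 9.25, 9.19 and 8.23 in NesGFP. Its PomcGFP arrays were the lowest and its NesGFP arrays overlapped both Tbr2 lines, and PomcGFP minus NesGFP was -1.70 ± 0.28 (adjusted p = 0.00058).

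Cdc20, which activates the anaphase-promoting complex, had log2 values of 6.79 and 6.64 in PomcGFP, 7.22, 7.20 and 7.19 in kiTbr2GFP, 6.86, 7.11 and 7.26 in tgTbr2GFP, and 7.44, 7.22 and 7.43 in NesGFP. The spread between lines was small, PomcGFP minus both Tbr2 lines was -0.43 ± 0.12 (adjusted p = 0.0903), and kiTbr2GFP minus tgTbr2GFP was 0.12 ± 0.12 (adjusted p = 0.953). PomcGFP minus NesGFP was -0.65 ± 0.14 (adjusted p = 0.00273). Ube2c, the ubiquitin-conjugating enzyme of that complex, passed in none of the 4 main comparisons, with PomcGFP minus both Tbr2 lines at -0.74 ± 0.23 (adjusted p = 0.132). Ttk, the kinase Mps1 of the checkpoint, was 1.76 ± 0.15 higher in both Tbr2 lines than in NesGFP (adjusted p = 2.59e-06) and 1.21 ± 0.17 higher in kiTbr2GFP than in tgTbr2GFP (adjusted p = 0.00928). In this group 4 of 6 genes were lower in PomcGFP than in both Tbr2 lines (against 1.73% of all genes). In the Tbr2 lines 2 of 6, Bub1 and Ttk, were higher than in NesGFP (against 19.8% of all genes).

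All 7 kinetochore and centromere genes were lower in PomcGFP than in the mean of both Tbr2 lines, and higher in that mean than in NesGFP. With tgTbr2GFP alone, 5 of 7 were lower in PomcGFP (against 0.823% of all genes). In tgTbr2GFP 4 of 7 were higher than in NesGFP (against 15.8% of all genes). In kiTbr2GFP 5 of 7 were higher than in tgTbr2GFP. Knl1, the scaffold on which checkpoint proteins gather, had log2 values of 6.24 and 5.80 in PomcGFP, 9.57, 9.38 and 9.12 in kiTbr2GFP, 8.17, 7.64 and 8.11 in tgTbr2GFP, and 5.14, 5.58 and 4.90 in NesGFP. The 4 lines did not overlap, in the order kiTbr2GFP, tgTbr2GFP, PomcGFP and NesGFP. Both Tbr2 lines minus NesGFP was 3.46 ± 0.18 (adjusted p = 8.6e-08), PomcGFP minus both Tbr2 lines was -2.64 ± 0.21 (adjusted p = 7.76e-05), and PomcGFP minus NesGFP was 0.82 ± 0.23 (adjusted p = 0.0156). Cenpe, the kinesin that carries chromosomes to the spindle equator, was at 6.80 and 6.21 in PomcGFP, 9.22, 8.76 and 8.88 in kiTbr2GFP, 7.80, 7.84 and 7.67 in tgTbr2GFP, and 5.21, 5.61 and 5.31 in NesGFP. It had the same order without overlap, with 2.98 ± 0.15 for both Tbr2 lines minus NesGFP (adjusted p = 7.13e-08) and 1.13 ± 0.20 for PomcGFP minus NesGFP (adjusted p = 0.000809).

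Ndc80, Nuf2 and Spc25 are subunits of the complex that grips microtubules. Ndc80 measured 7.37 and 7.37 in PomcGFP, 8.89, 8.49 and 8.49 in kiTbr2GFP, 7.81, 7.87 and 7.39 in tgTbr2GFP, and 6.95, 7.32 and 7.10 in NesGFP. The kiTbr2GFP arrays were the highest and the NesGFP arrays the lowest, and PomcGFP lay just below tgTbr2GFP. Spc25 was at 6.01 and 6.34 in PomcGFP, 8.79, 8.98 and 8.76 in kiTbr2GFP, 7.70, 7.97 and 7.99 in tgTbr2GFP, and 7.65, 7.91 and 7.64 in NesGFP. Its order was another: PomcGFP was the lowest, tgTbr2GFP and NesGFP overlapped, and PomcGFP minus both Tbr2 lines was -2.19 ± 0.14 (adjusted p = 2.61e-05). PomcGFP minus NesGFP was -1.56 ± 0.15 for Spc25 (adjusted p = 1.53e-05) and -1.23 ± 0.34 for Nuf2 (adjusted p = 0.0129), but 0.25 ± 0.18 for Ndc80 (adjusted p = 0.302). Ska3, of the complex that steadies these attachments, had 6.25 and 5.59 in PomcGFP, 8.13, 7.64 and 7.48 in kiTbr2GFP, 6.06, 6.28 and 6.33 in tgTbr2GFP, and 6.22, 6.01 and 5.34 in NesGFP. Only kiTbr2GFP stood apart there, by 1.52 ± 0.25 against tgTbr2GFP (adjusted p = 0.0153). Cenpf, a large kinetochore protein, was 2.13 ± 0.21 higher in both Tbr2 lines than in NesGFP (adjusted p = 7.87e-06).

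The chromosomal passenger complex corrects faulty attachments, and of its 3 genes here 0 were higher in both Tbr2 lines than in NesGFP. Aurkb, its kinase, measured 7.38 and 7.41 in PomcGFP, 7.65, 7.87 and 7.90 in kiTbr2GFP, 7.23, 7.52 and 7.79 in tgTbr2GFP, and 7.52, 7.51 and 7.47 in NesGFP. The tgTbr2GFP arrays overlapped those of each other line, and Aurkb passed in none of the 4 main comparisons. Birc5, survivin, was at 6.76 and 6.57 in PomcGFP, 8.27, 8.41 and 8.09 in kiTbr2GFP, 7.40, 7.44 and 7.47 in tgTbr2GFP, and 7.97, 7.62 and 7.75 in NesGFP. The 4 lines did not overlap, in the order kiTbr2GFP, NesGFP, tgTbr2GFP and PomcGFP. PomcGFP minus both Tbr2 lines was -1.19 ± 0.12 (adjusted p = 0.000392), kiTbr2GFP minus tgTbr2GFP was 0.82 ± 0.12 (adjusted p = 0.0112), and both Tbr2 lines minus NesGFP was 0.07 ± 0.11 (adjusted p = 0.624). Cdca8, borealin, was 0.91 ± 0.16 higher in kiTbr2GFP than in tgTbr2GFP (adjusted p = 0.0185) and lower in PomcGFP than in NesGFP by a difference of -0.98 ± 0.17 (adjusted p = 0.000974).

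Of the 8 mitotic kinesins, 5 were lower in PomcGFP than in both Tbr2 lines, 7 were higher in the Tbr2 lines than in NesGFP and 5 were higher in kiTbr2GFP than in tgTbr2GFP. Kif11 (Eg5), the motor that pushes spindle poles apart, had log2 values of 6.96 and 6.59 in PomcGFP, 9.93, 9.66 and 9.45 in kiTbr2GFP, 7.77, 8.02 and 8.11 in tgTbr2GFP, and 6.51, 6.29 and 5.69 in NesGFP. The 4 lines did not overlap. Its kiTbr2GFP minus tgTbr2GFP difference of 1.71 ± 0.21 (adjusted p = 0.00622) was the largest of the 57 genes, and both Tbr2 lines minus NesGFP was 2.66 ± 0.18 (adjusted p = 4.38e-07). Kif4, a motor on chromosome arms, measured 5.61 and 5.58 in PomcGFP, 8.09, 8.02 and 7.82 in kiTbr2GFP, 6.93, 6.93 and 6.80 in tgTbr2GFP, and 6.11, 6.63 and 7.02 in NesGFP. PomcGFP was the lowest, and the NesGFP arrays spread across those of tgTbr2GFP. Kif20b, a motor of late cytokinesis, was at 6.43 and 6.28 in PomcGFP, 8.57, 7.91 and 8.05 in kiTbr2GFP, 7.14, 6.89 and 6.72 in tgTbr2GFP, and 5.22, 5.13 and 5.12 in NesGFP. Its order was kiTbr2GFP, tgTbr2GFP, PomcGFP and NesGFP without overlap, with PomcGFP minus NesGFP at 1.20 ± 0.19 (adjusted p = 0.000407).

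Kif18a, which damps chromosome movements at the equator, had 6.65 and 6.83 in PomcGFP, 7.91, 7.66 and 7.79 in kiTbr2GFP, 7.29, 7.58 and 7.38 in tgTbr2GFP, and 6.45, 5.46 and 5.38 in NesGFP. NesGFP was the lowest line, and the difference of both Tbr2 lines minus NesGFP was 1.84 ± 0.20 (adjusted p = 1.83e-05), while kiTbr2GFP minus tgTbr2GFP was 0.37 ± 0.23 (adjusted p = 0.805). Kif15, which can back up Kif11, was 0.90 ± 0.15 higher in kiTbr2GFP than in tgTbr2GFP (adjusted p = 0.016), and Kif23, of the centralspindlin complex, 1.10 ± 0.17 (adjusted p = 0.0112). Kif20a, a motor of the central spindle, had PomcGFP minus both Tbr2 lines at -0.29 ± 0.16 (adjusted p = 0.54). Kif2c, which takes microtubules apart at centromeres, passed in none of the 4 main comparisons, with kiTbr2GFP minus tgTbr2GFP at 1.00 ± 0.25 (adjusted p = 0.109).

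Among the 8 spindle microtubule-associated proteins 6 were lower in PomcGFP than in both Tbr2 lines, 7 higher in the Tbr2 lines than in NesGFP and 4 higher in kiTbr2GFP than in tgTbr2GFP. Tpx2, which targets Aurora A to the spindle, measured 6.85 and 6.73 in PomcGFP, 9.26, 8.98 and 8.98 in kiTbr2GFP, 7.83, 8.08 and 7.90 in tgTbr2GFP, and 8.42, 8.17 and 8.15 in NesGFP. The lines did not overlap, and NesGFP lay between the Tbr2 lines. PomcGFP minus both Tbr2 lines was -1.71 ± 0.13 (adjusted p = 7.15e-05), PomcGFP minus NesGFP was -1.46 ± 0.14 (adjusted p = 1.4e-05), and kiTbr2GFP minus tgTbr2GFP was 1.14 ± 0.13 (adjusted p = 0.00462). Prc1, which bundles the microtubules of the central spindle, had 6.87 and 6.65 in PomcGFP, 9.24, 8.86 and 8.40 in kiTbr2GFP, 7.52, 7.78 and 7.90 in tgTbr2GFP, and 7.10, 7.43 and 7.76 in NesGFP. The kiTbr2GFP arrays were the highest, the NesGFP arrays overlapped those of tgTbr2GFP, and PomcGFP was below all other arrays. Hmmr (-1.92 ± 0.16, adjusted p = 0.000134) and Aspm (-1.50 ± 0.18, adjusted p = 0.000939), proteins of spindle poles, were lower in PomcGFP than in both Tbr2 lines, and Dlgap5, a spindle protein, stood at -0.78 ± 0.25 (adjusted p = 0.15). Nusap1, Ckap2 and Ckap2l were 0.80, 0.82 and 0.69 higher in both Tbr2 lines than in NesGFP.

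For cytokinesis, 3 of 4 genes were lower in PomcGFP than in both Tbr2 lines, and the same 3 (Ect2, Racgap1 and Cep55) were higher in the Tbr2 lines than in NesGFP. Cep55, which recruits the machinery that cuts the bridge between daughter cells, measured 6.31 and 5.90 in PomcGFP, 8.01, 7.56 and 7.78 in kiTbr2GFP, 6.53, 6.53 and 6.44 in tgTbr2GFP, and 5.87, 6.28 and 5.81 in NesGFP. The kiTbr2GFP arrays stood apart, with 1.29 ± 0.16 against tgTbr2GFP (adjusted p = 0.0068), and both Tbr2 lines minus NesGFP was 1.15 ± 0.14 (adjusted p = 4.16e-05). Ect2, which activates RhoA at the furrow, was 1.13 ± 0.20 higher in kiTbr2GFP than in tgTbr2GFP (adjusted p = 0.0226). Anln (anillin), a scaffold of the contractile ring that oligodendrocytes also make, was at 7.12 and 6.76 in PomcGFP, 8.26, 7.81 and 7.70 in kiTbr2GFP, 7.58, 7.02 and 6.54 in tgTbr2GFP, and 7.44, 7.47 and 7.72 in NesGFP. The kiTbr2GFP and NesGFP arrays overlapped, the tgTbr2GFP arrays spread over more than 1 log2 unit, and Anln passed in none of the 4 main comparisons.

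Of the 6 condensin genes, 3 were lower in PomcGFP than in both Tbr2 lines (Smc4, Ncapg and Ncaph), and 4 were higher in both Tbr2 lines than in NesGFP (Smc4, Smc2, Ncapg and Ncapg2). Smc4, an ATPase of both condensin complexes, had log2 values of 8.62 and 8.69 in PomcGFP, 10.77, 10.51 and 10.62 in kiTbr2GFP, 9.66, 9.70 and 9.86 in tgTbr2GFP, and 6.36, 7.27 and 6.90 in NesGFP. The lines did not overlap, in the order kiTbr2GFP, tgTbr2GFP, PomcGFP and NesGFP. Both Tbr2 lines minus NesGFP was 3.34 ± 0.17 (adjusted p = 6.74e-08), PomcGFP minus NesGFP was 1.81 ± 0.21 (adjusted p = 5.71e-05), PomcGFP minus both Tbr2 lines was -1.53 ± 0.19 (adjusted p = 0.00118), and kiTbr2GFP minus tgTbr2GFP was 0.90 ± 0.19, which did not pass (adjusted p = 0.0527). Smc2, its partner, measured 8.85 and 8.64 in PomcGFP, 10.04, 9.69 and 9.61 in kiTbr2GFP, 9.10, 9.42 and 9.12 in tgTbr2GFP, and 6.60, 7.17 and 7.44 in NesGFP. The order was the same and without overlap, with 2.43 ± 0.17 for both Tbr2 lines minus NesGFP (adjusted p = 6.64e-07) and 1.68 ± 0.22 for PomcGFP minus NesGFP (adjusted p = 0.000138).

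Ncaph, the kleisin subunit of condensin I, was at 6.63 and 7.11 in PomcGFP, 8.11, 8.12 and 7.94 in kiTbr2GFP, 7.29, 7.37 and 7.39 in tgTbr2GFP, and 7.53, 7.75 and 7.54 in NesGFP. NesGFP lay between kiTbr2GFP and tgTbr2GFP, and PomcGFP was the lowest, with -0.74 ± 0.15 against NesGFP (adjusted p = 0.00218) and -0.84 ± 0.13 against both Tbr2 lines (adjusted p = 0.00441). Ncapd2, another subunit of condensin I, had 8.06 and 7.66 in PomcGFP, 8.46, 8.34 and 8.27 in kiTbr2GFP, 7.71, 7.98 and 7.90 in tgTbr2GFP, and 8.27, 8.41 and 7.95 in NesGFP. PomcGFP, tgTbr2GFP and NesGFP overlapped, NesGFP also overlapped kiTbr2GFP, and Ncapd2 passed in none of the 4 main comparisons. Ncapg, the third of these subunits, was lower in PomcGFP than in both Tbr2 lines by a difference of -2.08 ± 0.19 (adjusted p = 0.000184) and higher in both Tbr2 lines than in NesGFP by 1.74 ± 0.16 (adjusted p = 5.27e-06). Ncapg2, of condensin II, was 1.04 ± 0.21 higher in both Tbr2 lines than in NesGFP (adjusted p = 0.00138).

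Of the 5 genes of chromosome coating, DNA topology and cohesion, 4 were lower in PomcGFP than in the mean of both Tbr2 lines. In that mean 4 were higher than in NesGFP (against 19.8% of all genes), and in tgTbr2GFP alone 2 were (against 15.8%). In kiTbr2GFP 4 were higher than in tgTbr2GFP. Mki67, the chromosome coat protein Ki-67 used to stain dividing cells, measured 6.83 and 6.90 in PomcGFP, 9.30, 8.95 and 9.03 in kiTbr2GFP, 7.71, 8.02 and 8.08 in tgTbr2GFP, and 6.13, 6.003 and 6.15 in NesGFP. The lines did not overlap, and NesGFP was the lowest. Both Tbr2 lines minus NesGFP was 2.42 ± 0.11 (adjusted p = 4.99e-08), PomcGFP minus both Tbr2 lines was -1.65 ± 0.13 (adjusted p = 7.76e-05), and PomcGFP minus NesGFP was 0.77 ± 0.15 (adjusted p = 0.00145). Top2a, the topoisomerase that untangles sister chromatids, was at 7.02 and 7.17 in PomcGFP, 10.55, 10.46 and 10.34 in kiTbr2GFP, 9.05, 9.36 and 9.17 in tgTbr2GFP, and 7.30, 7.96 and 8.27 in NesGFP. PomcGFP was the lowest, with -2.73 ± 0.20 against both Tbr2 lines (adjusted p = 7.15e-05) and -0.75 ± 0.23 against NesGFP (adjusted p = 0.0216).

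Hmgb2, a DNA-bending protein of proliferating cells, had log2 values of 8.80 and 8.71 in PomcGFP, 11.82, 11.64 and 11.66 in kiTbr2GFP, 10.88, 11.05 and 11.12 in tgTbr2GFP, and 11.05, 11.05 and 10.996 in NesGFP. PomcGFP stood far below the other lines, and the tgTbr2GFP and NesGFP arrays overlapped. PomcGFP minus both Tbr2 lines was -2.60 ± 0.10 (adjusted p = 5.56e-07), PomcGFP minus NesGFP was -2.28 ± 0.12 (adjusted p = 5.19e-07), and both Tbr2 lines minus NesGFP was 0.32 ± 0.09 (adjusted p = 0.0108). PomcGFP minus NesGFP thus had opposite signs for Hmgb2 and Mki67. Esco2, which acetylates cohesin, was 1.03 ± 0.20 higher in kiTbr2GFP than in tgTbr2GFP (adjusted p = 0.03), and Cdca2, a phosphatase adaptor on chromosomes, passed in none of the 4 main comparisons. Several probe sets carried the symbols Hmgb2 (4) and Cks2 (3), whose differences from both Tbr2 lines in PomcGFP ranged from -2.78 to -2.57 for Hmgb2 and from -2.57 to -2.52 for Cks2. A second probe set of Top2a was dim on every line (means of 4.52 to 5.43) and differed by -0.11 in PomcGFP.

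**Figure D4:**
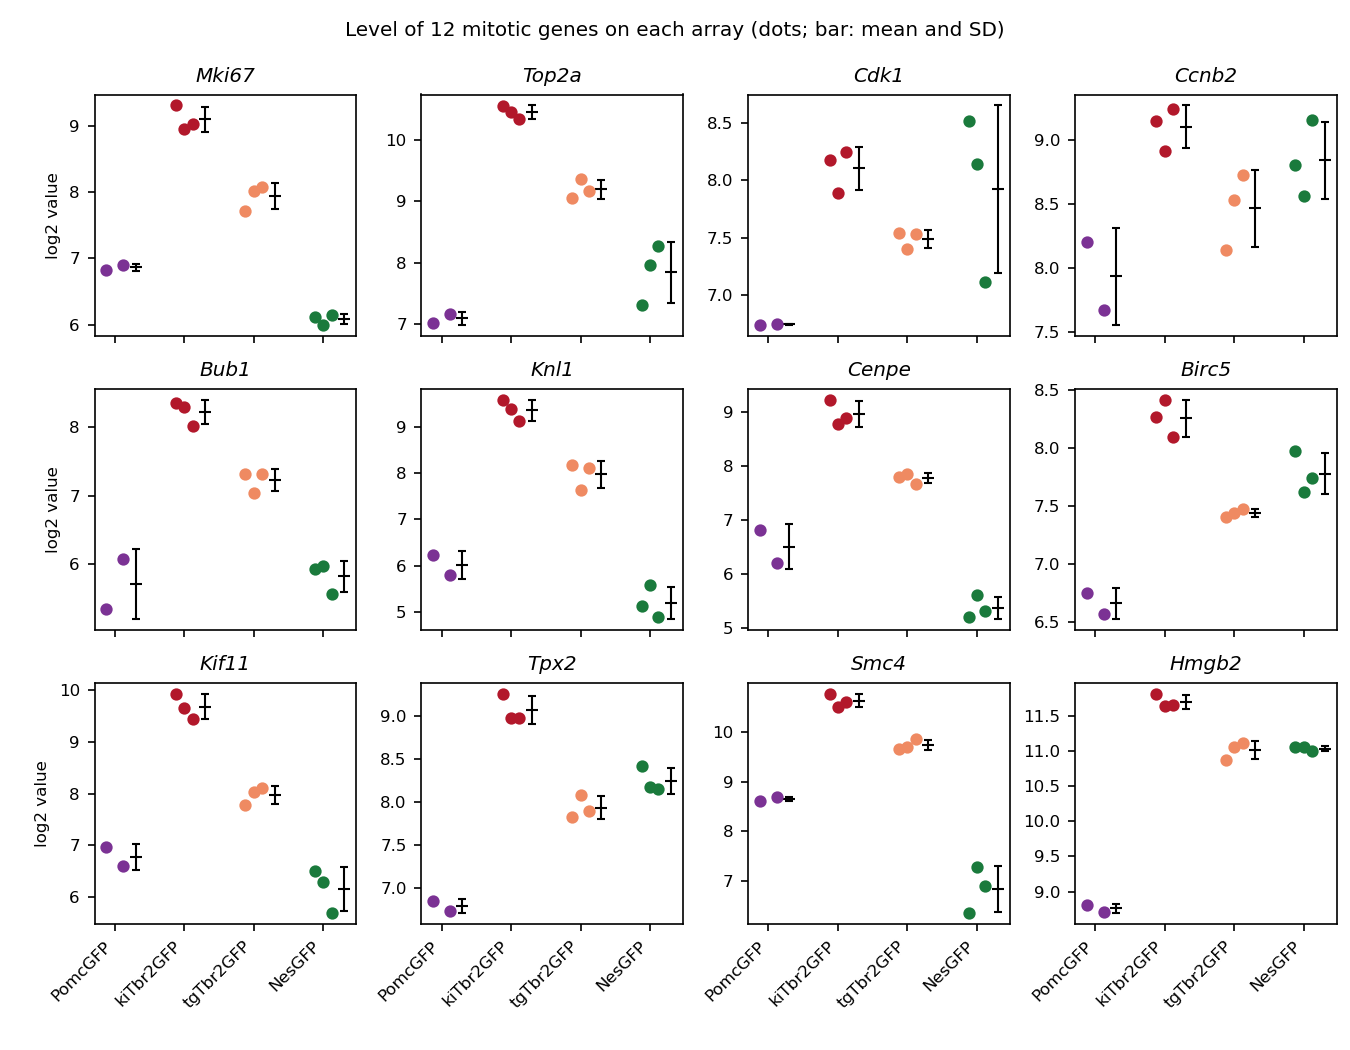
Log2 value (vertical axis) of 12 of the mitotic genes on each array (dots), by line, with the mean and SD beside them (n = 2 arrays for PomcGFP, 3 for each other line). Knl1, Smc4 and Mki67 are lowest in NesGFP, whereas Hmgb2 is lowest in PomcGFP and about as high in NesGFP as in tgTbr2GFP.

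Longer genes of the set had larger differences between the Tbr2 lines and NesGFP. Across the 57 genes the rank correlation (Spearman's rho) between the RefSeq gene span, introns included, and the difference of both Tbr2 lines minus NesGFP was 0.60, against 0.08 across 16512 genes tested that had a span. It was 0.40 for PomcGFP minus NesGFP (0.10 across all genes), 0.45 for kiTbr2GFP minus tgTbr2GFP (-0.11) and -0.29 for PomcGFP minus both Tbr2 lines (0.04). These correlations are descriptions across genes, which are not independent and share the same arrays. The median difference from NesGFP was 0.22 for the 12 genes with a span between 10000 and 20000 bases, 1.04 for the 19 between 20000 and 40000 and 1.39 for the 15 between 40000 and 80000, where the medians of all genes in those classes were -0.06, -0.06 and 0.03. Hmgb2 spans 4157 bases and Cdc20 4443, against 63379 for Knl1 and 60978 for Cenpe.

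**Figure D5:**
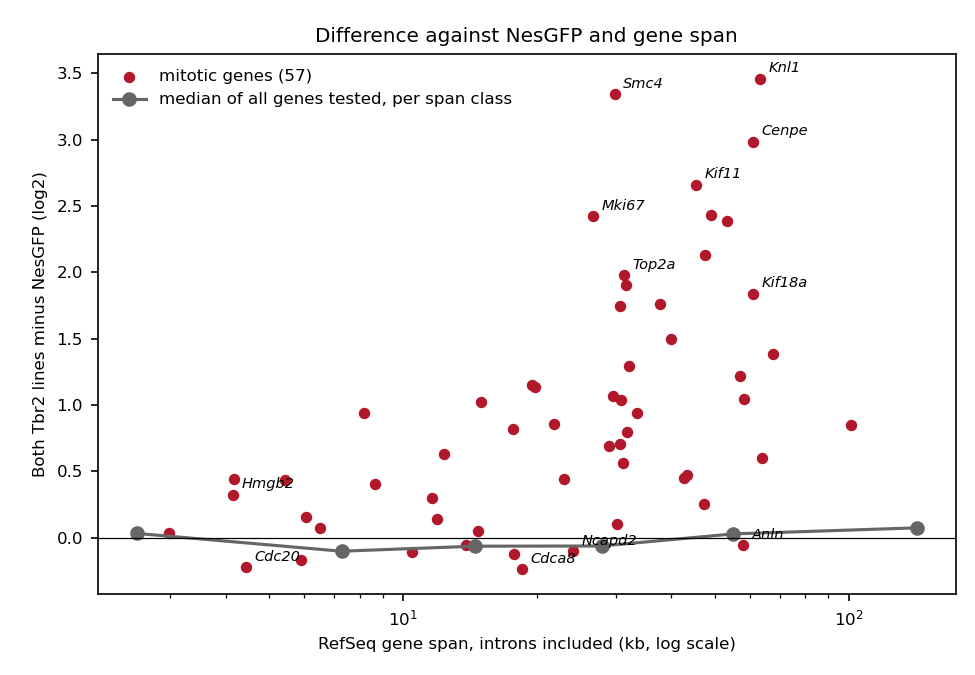
Log2 difference of both Tbr2 lines minus NesGFP (vertical axis) against RefSeq gene span in kb (horizontal log axis) for the 57 mitotic genes (red), with the median of all genes tested per span class (grey line). The mitotic genes above a difference of 2, such as Knl1, Smc4, Cenpe and Kif11, have spans above 20000 bases, while the median of all genes stays near 0 in every class.

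Related genes outside the set were counted in the same tests. Of 61 further mitotic genes 16 were lower in PomcGFP than in both Tbr2 lines (26.2%, against 1.73% of all genes). Cenph (-2.24) and Cenpk (-2.20) of the inner kinetochore were among these. Of the 61 genes 0 were higher (against 2.0% of all genes), and the median was -0.55. Against kiTbr2GFP alone 26 of the 61 were lower in PomcGFP (42.6%, background 1.98%). Against tgTbr2GFP alone 2 of the 61 were (3.28%, background 0.823%). Against NesGFP 22 of them were higher in both Tbr2 lines (36.1%, against 19.8% of all genes) and 6 lower (9.84%, against 29.1%; median 0.18), with Cenpc1 (2.37), the centromere protein CENP-C, at the top and Bub3 (-1.20), a checkpoint protein, and Pttg1 (-1.12), securin, at the bottom. In kiTbr2GFP 5 of the 61 were higher than in tgTbr2GFP (8.2%, against 0.436% of all genes), including Sgo1 (1.33), the protector of centromeric cohesion. There 0 were lower (against 0.684%). Of 36 DNA replication genes 9 were lower in PomcGFP than in both Tbr2 lines (25%, against 1.73% of all genes, median -0.46). Among these were Prim1 (-1.44), a primase subunit, and Mcm6 (-1.12), of the replicative helicase. Against kiTbr2GFP alone 16 of the 36 were lower in PomcGFP (44.4%), and against tgTbr2GFP alone 3 were (8.33%). Against NesGFP 6 replication genes were higher in the Tbr2 lines (16.7%) and 4 lower (11.1%), both under the shares of all genes (19.8% and 29.1%). In kiTbr2GFP 2 replication genes were higher than in tgTbr2GFP (5.56%, against 0.436% of all genes).

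Cohesin, the ring complex related to condensin, also works outside mitosis. Of 11 cohesin and loader genes 9 were higher in both Tbr2 lines than in NesGFP (81.8%, against 19.8% of all genes, median 1.59). They were led by Nipbl (2.17), the loader, and Esco1 (2.06). In PomcGFP 9 of the 11 were higher than in NesGFP (81.8%, against 15.9% of all genes, median 1.43). By limma's test 0 of the 11 passed for PomcGFP minus both Tbr2 lines, near the shares of all genes (1.73% lower, 2.0% higher). There 10 differences were negative and 1 positive (median -0.17), with 1 gene lower at an unadjusted p under 0.05. At that unadjusted p 4 were lower in PomcGFP than in kiTbr2GFP alone, and 0 than in tgTbr2GFP alone. For kiTbr2GFP minus tgTbr2GFP 0 of the 11 passed (shares of all genes 0.436% higher, 0.684% lower). Its median was 0.13, with 0 at an unadjusted p under 0.05. A list of 20 regulators held E2f, Tfdp, retinoblastoma family, Lin and NF-Y genes and Rbbp4, not all of them parts of the DREAM complex. Mybl2 (B-Myb) and Foxm1 were counted among the further mitotic genes. Of the 20 regulators 1 was lower in PomcGFP than in both Tbr2 lines (5%, against 1.73% of all genes). It was Rbl1 (p107, -1.18), which was also higher in kiTbr2GFP than in tgTbr2GFP (0.77). Against NesGFP 6 of the 20 were higher in the Tbr2 lines (30%, against 19.8% of all genes) and 1 lower (5%, against 29.1%). In PomcGFP 2 were higher than in NesGFP (10%) and 3 lower (15%), both under the shares of all genes (15.9% and 24%).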

How the data were processed

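Gene expression was measured on 11 arrays of 4 reporter lines. The authors deposited 1 log2 value per probe set and array, made with RMA and oligo, both named without a version per the submitters' processing notes; these values were used as deposited. Array medians were 7.00 to 7.15. Probe sets with 1 gene symbol were kept if above the 25th percentile of their array on at least 2 arrays, and the probe set with the highest mean stood for a gene (16527 genes).

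limma 3.58.1 (R 4.3.3) fitted a mean for each of the 4 lines in a single model (7 residual and 4.22 prior degrees of freedom), with two-sided moderated tests and Benjamini-Hochberg adjustment over all genes at 0.05. Differences are in log2 units with the standard error (SE). The number of arrays limits the precision.

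The 58 genes, their roles and the lists beside them were chosen with earlier results of these data known. Values on every array are given for a fixed panel of 24 measured genes, for the 5 largest positive and negative differences past the test in each main comparison, and for genes against the direction of most. For each related list, examples come from the 3 largest positive and 3 largest negative past the test. Alternatives were other filters, scalings, priors, array weights, a replicate block, the compared groups alone and leaving out each array. Promoters and spans came from RefSeq tables of GRCm38.p6, and motifs were searched with Python 3.11.15. Promoters of 9 genes are not shown or searched here.

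Deviations from the line means correlated at -0.11 to 0.26 between same-numbered arrays of different lines (15 pairs). Between arrays of other numbers they correlated at -0.25 to 0.12 (30 pairs). The third arrays of kiTbr2GFP, tgTbr2GFP and NesGFP correlated with each other at 0.13 to 0.26. Whether same-numbered arrays were handled together was not tested, and the main fit had no replicate block.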

Additional observations from a re-analysis of the deposited data

Results flagged for a closer look

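The 2 Tbr2 lines carry GFP for the same gene, and 29 mitotic genes were singled out because the test of the difference between these lines itself was past the threshold, with kiTbr2GFP above tgTbr2GFP in each case. The values are log2 differences, kiTbr2GFP minus tgTbr2GFP, from the limma fit of 3 arrays against 3. For the kinesin motors these differences were Kif11 1.71, Kif20b 1.26, Kif23 1.10, Kif4 1.09 and Kif15 0.90. The kinetochore and centromere genes stood at Ska3 1.52, Knl1 1.38, Cenpe 1.19, Spc25 0.96 and Ndc80 0.93. In cytokinesis the differences were Cep55 1.29 and Ect2 1.13. Genes of chromosome coating, DNA topology and cohesion gave Top2a 1.26, Mki67 1.16, Esco2 1.03 and Hmgb2 0.69. The checkpoint kinases gave Ttk 1.21 and Bub1 0.99. Condensin I subunits had Ncapg 1.17 and Ncaph 0.71. Spindle microtubule-associated proteins differed by Aspm 1.14, Tpx2 1.14, Prc1 1.10 and Hmmr 1.06. Kinases and cyclins showed Pbk 1.01, Ccna2 0.99 and Melk 0.73. The passenger complex genes differed by Cdca8 0.91 and Birc5 0.82. In the same fit 4 of 7 mature granule neuron genes were lower in kiTbr2GFP than in tgTbr2GFP (against 0.684% of all genes). Their list means were 7.34 to 7.53 on the kiTbr2GFP arrays and 8.33 to 9.23 on the tgTbr2GFP arrays. The part of these neuron genes in the 29 differences was not tested. No other value stood out under the rules applied, and groups of 2 or 3 arrays were not searched for outlying arrays.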

How the results depend on the processing

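The direction of every named difference past the test was the same under all alternatives run, and no call reversed. For the named genes 1103 results under other settings were on the same side of the threshold, 29 fell below it and 29 passed it anew; with each array left out in turn the numbers were 1305, 97 and 17. Counts of genes past the test that moved by over 1.5 times were these. With array weights 48 rather than 29 genes were higher in kiTbr2GFP than in tgTbr2GFP, and 35 rather than 21 were lower in PomcGFP than in tgTbr2GFP. With median centring 1 rather than 0 was lower in both Tbr2 lines than in NesGFP (Cdc20). The 3 genes lower in tgTbr2GFP than in NesGFP became 1 with cyclic loess and 1 with the compared groups alone (Cdca8 in both), and 6 with median centring. The cause was not tested. Over all genes, array weights called 561 rather than 72 genes higher in kiTbr2GFP than in tgTbr2GFP, and 587 rather than 136 lower in PomcGFP than in tgTbr2GFP.

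With each array left out in turn, the genes lower in PomcGFP than in both Tbr2 lines numbered 26 to 48, than in kiTbr2GFP 37 to 52, than in tgTbr2GFP 8 to 25 and than in NesGFP 13 to 24, with 6 to 8 higher in PomcGFP than in NesGFP. Those higher in kiTbr2GFP than in tgTbr2GFP numbered 11 to 33. Both Tbr2 lines had 35 to 39 genes higher and 0 to 3 lower than NesGFP, kiTbr2GFP 43 to 46 higher, and tgTbr2GFP 16 to 22 higher and 1 to 4 lower. The F test was passed by 48 to 56 genes. With 2 PomcGFP arrays, leaving out 1 leaves a single array that is assumed to vary like the other lines.

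The main fit did not use the replicate numbers of the labels. With the replicate number as a block, 40 genes were lower in PomcGFP than in both Tbr2 lines, 16 lower than in tgTbr2GFP, 25 higher in kiTbr2GFP than in tgTbr2GFP, and 41 higher in both Tbr2 lines than in NesGFP. PomcGFP had 25 genes lower than NesGFP under the block and 7 higher.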
